A study of Homo sapiens with 20 samples.

Results

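PEG3 was followed through 3 tables of exon skipping and 1 table of FUBP1-bound RNA in HepG2, a human liver cancer cell line. The tables of skipped exon events were searched for the gene symbol PEG3, which gave 28 of the 19792 events listed for FUBP1 depletion, 28 of the 32990 listed for U3 depletion and 24 of the 7065 listed for FBL depletion. Of these, 25, 28 and 18 events held enough reads to be tested, with 10 or more junction reads in the average library and reads in both groups. A skipped exon event is an exon that some transcripts join to both neighbours (inclusion) and others leave out (skipping), each seen as reads across a splice junction. The inclusion level is the share of the inclusion form after each form's reads are divided by its effective length, and it runs from 0 to 1.

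FUBP1 was depleted for 48 h with the siRNA siFUBP1 and set against the control siRNA siCtrl2, with 3 libraries each. Cells treated with an antisense oligonucleotide (ASO) against U3 were set against cells given an ASO against GFP, both harvested after 72 h, again with 3 libraries each. Input RNA of cells treated for 48 h with the control siRNA siCtrl or with siFBL had 2 libraries per group, and FUBP1 RNA immunoprecipitation (RIP) was made from the same treatments with 2 libraries per group. All groups were the same cell line, and the 3 depletions shared no library. The design asked how loss of the splicing factor FUBP1, of the methyltransferase FBL or of the snoRNA U3 altered exon use, and how FUBP1 binding changed without FBL.

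PEG3 (paternally expressed gene 3) is an imprinted gene, read from the paternal chromosome, and it encodes a large nuclear protein with a SCAN domain and C2H2 zinc fingers. A chain of small exons near its start carries no coding sequence, and most of the protein comes from a single large last exon. The neighbouring imprinted zinc finger gene ZIM2 starts at the same place and uses several of the same first exons, so reads across those exons cannot be assigned to one gene or the other. FUBP1 is a nuclear RNA-binding protein that binds near 3′ splice sites, FBL places 2′-O-methyl groups on RNA with C/D snoRNA guides, and U3 is a C/D snoRNA of ribosomal RNA processing.

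Junction reads of all listed events came to between 910779 and 13321799 per library. FUBP1 was at 50.5 ± 5.44 junction reads per 1000000 (SD, n = 3) in siCtrl2 and 7.52 ± 3.09 (n = 3) in siFUBP1. FBL had no listed event, and its mean normalized count in the RIP table was 1034 for the siCtrl comparison and 164 for the siFBL comparison. These means come from separate comparisons of RIP with input. The log2 ratio of RIP over input for FBL was -2.41 in siCtrl and -1.78 in siFBL. The means are therefore not a direct measure of the FBL RNA level. Of 11 hepatocyte markers fixed for the cell line, such as ALB and AFP, 9, 10 and 9 had a listed event in the 3 tables, and of 7 markers of other cell types none had one except PECAM1, which stood at no more than 0.834 per 1000000 in the U3 table. The study describes its libraries as biological replicates, and the p-values measure the spread between them.

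The skipped exons lay in 2 blocks. In build hg38 the gene is on the minus strand of chromosome 19, and exons are named here by their length in bases, 5′ to 3′. The first block held 6 exons without coding sequence, namely the 87-base exon (chr19:56836018-56836104), the 121-base exon (chr19:56833643-56833763), the 131-base exon (chr19:56833290-56833420), the 139-base exon (chr19:56829783-56829921), the 113-base exon (chr19:56827134-56827246) and the 76-base exon (chr19:56826388-56826463). GENCODE release 44 lists 18 PEG3 transcripts, of which 14 hold the 87-base exon, 7 the 76-base exon, 3 the 131-base exon, 2 the 113-base exon and 1 each the 121-base and 139-base exons. Of the 11 ZIM2 transcripts, 6 hold the 87-base exon and 6 the 76-base exon.

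These exons join the first coding exon, which has 3 annotated acceptor sites in the tables. The forms are 166 bases (chr19:56824262-56824427), 253 bases (chr19:56824262-56824514) and 480 bases (chr19:56824262-56824741), with the longest in the canonical transcript. A 251-base form and a 2403-base form of the 131-base exon appeared only as flanking exons and match no annotated exon. The second block was a single coding exon with 2 acceptors 3 bases apart, giving a 93-base form (chr19:56817746-56817838) and a 90-base form (chr19:56817746-56817835), just before the last exon.

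**Figure D1:**
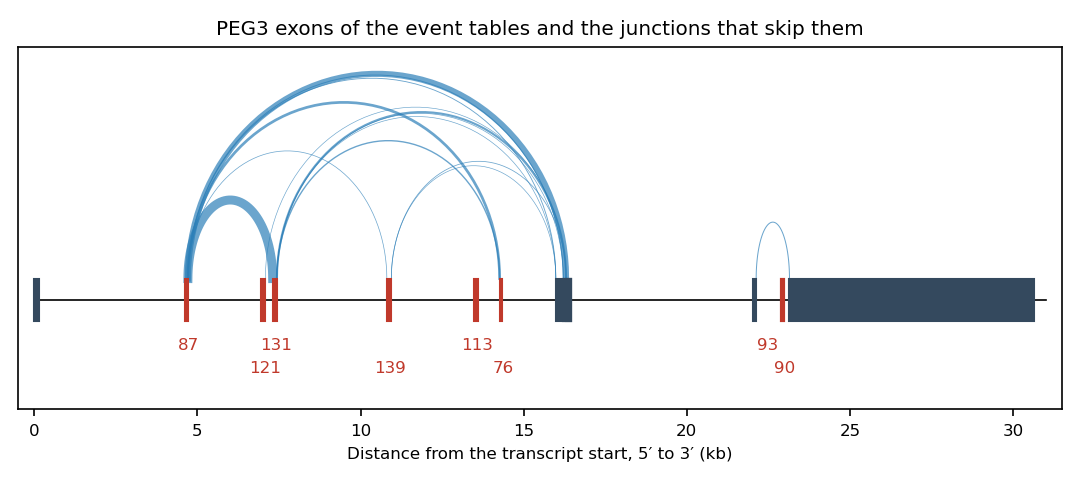
PEG3 exons to scale against the distance from the transcript start in kb, 5′ to 3′. Red boxes with their length in bases are the skipped exons, dark boxes are exons that only flank an event, and arcs are the junctions that skip an exon, drawn wider with more reads per 1000000 in siCtrl2. The widest arcs leave the 87-base exon for the acceptor of the 131-base exon, shared with the 2403-base form, and for the first coding exon.

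The 3′ splice sites of these exons are shown because many of the events turn on which acceptor the 87-base exon joins. Each line gives 20 intron bases and 3 exon bases of hg38 on the transcript's strand, 5′ to 3′, with the last 2 intron bases in capitals.
87-base exon: cattttcttttcctctacAGctt
121-base exon: catatgtaccttattcatAGgtg
131-base exon: tagagaatgtcggtctgcAGaga
139-base exon: gtatcttctgttttcttcAGtgg
113-base exon: ttttattttttttggcacAGaag
76-base exon: ttcctttaaaacttctgcAGata
480-base form: tatctccttacgatccacAGgtc
253-base form: actctgagttttttcatcAGagg
166-base form: tctgcctcgattggttgcAGccg
The coding exon with tandem acceptors is shown with both sites in capitals.
93-base and 90-base forms: catattgtccttgtgaccAGgAGtgc

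The 20 intron bases differed in their T content between these exons. The 113-base exon had 12 T of 20 and the 139-base exon 11, against 8 for the 76-base and 121-base exons and 5 for the 131-base exon. Over the 31955 distinct exons of the 3 tables the median was 9, and 90.7% of exons had at least as many T as the 131-base exon while 14.1% had at least as many as the 113-base exon. The letters TTTT, searched on the transcript's strand only, stood in the windows of the 87-base, 139-base and 113-base exons and the 253-base form, and in 43.9% of all windows. These matches describe the window alone.

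In siCtrl2 cells the 87-base exon was joined more often to the acceptor of the 131-base exon than to any single acceptor further on. The 2403-base form starts at that same acceptor, so these reads cannot be assigned to the 131-base exon alone. The levels of the 131-base exon after the 87-base exon, given below, count the same reads. Reads from the 87-base exon to the acceptor of the 131-base exon, skipping the 121-base exon, stood at 91.8 ± 14.0 per 1000000 (SD, n = 3) in siCtrl2. Reads from the 87-base exon straight to the 166-base form stood at 60.2 ± 17.6 and reads to the 76-base exon at 23.1 ± 13.6. In GFP ASO libraries the same junctions stood at 19.8 ± 0.708, 23.5 ± 2.18 and 14.2 ± 3.68 per 1000000 (n = 3), so that the order of the first pair was the opposite there. In siCtrl input they stood at 112 ± 11.7, 74.0 ± 19.2 and 7.44 ± 10.5 (SD, n = 2), in the order of siCtrl2. The totals behind these values come from tables with different event lists, so levels per 1000000 are set against each other only within a table.

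Exon use in the controls also differed between the tables. The 121-base exon between the 87-base and 131-base exons was included at 0.0776, 0.0800 and 0.148 in siCtrl2, at 0.326, 0.313 and 0.278 in GFP ASO and at 0.0314 and 0.0828 in siCtrl input. The GFP ASO libraries were above all libraries of the other controls for this exon. The 131-base exon between the 87-base and 76-base exons had levels of 0.791, 0.600 and 0.717 in siCtrl2, of 0.521, 0.423 and 0.504 in GFP ASO and of 0.787 and 1.00 in siCtrl input. Here the GFP ASO libraries were the lowest of the 3 controls. The paper describes poly(A) selection for the RNA of the FUBP1 and U3 depletions. It mentions none for the RIP input, which came from cell lysate. The reagent, the time of harvest, the RNA preparation and the experiment cannot be told apart in this comparison of controls, and it was not tested.

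No PEG3 event passed the test after depletion of FUBP1. The quasi-binomial test, with dispersion moderated by limma over all events, called 0 of the 25 PEG3 events at an adjusted p under 0.1, against a background of 0.197% of all tested events. The smallest adjusted p of a PEG3 event was 0.435. At an unadjusted p under 0.05 there were 3 PEG3 events, against 4.59% of all events, and limma on the log2 odds called 0. Groups did not overlap for 6 of the 25 events, all 6 lower in siFUBP1, against 5.16% of all tested events. Of the 25 events, 15 were lower and 10 higher in siFUBP1, against 51.9% of all tested events lower. The median change was -0.0105 against -0.0014 over all events. The PEG3 events share junction reads, so they are not independent of each other.

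The 76-base exon, which belongs to the canonical transcript, gave the lowest unadjusted p among the FUBP1 events whose groups did not overlap. Between the 131-base exon and the 166-base form its inclusion level was 0.607, 0.612 and 0.545 in siCtrl2 and 0.364, 0.465 and 0.370 in siFUBP1. The highest siFUBP1 library was below the lowest siCtrl2 library. The inclusion reads were 77, 188 and 114 in siCtrl2 and 148, 84 and 70 in siFUBP1, and the skipping reads were 33, 79 and 63 against 171, 64 and 79. The mean level went from 0.588 ± 0.0372 to 0.400 ± 0.0566 (SD, n = 3), with an unadjusted p of 0.00556 and an adjusted p of 0.622 by the quasi-binomial test. Leaving out each library in turn gave unadjusted p-values from 0.00328 to 0.0442. The same exon between the 87-base exon and the 166-base form was included at 0.334, 0.358 and 0.328 in siCtrl2 and at 0.288, 0.257 and 0.228 in siFUBP1. These groups did not overlap either, and the adjusted p was 0.812. Of the 7 tested events of the 76-base exon, 5 were lower and 2 higher in siFUBP1, by between -0.19 and 0.21.

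The 131-base exon had a higher mean level in siFUBP1 in each of its 6 tested events, by 0.00618 to 0.124, and none passed the adjusted test. Its events after the 87-base exon share the reads of the junction into its acceptor, so they are not independent of each other. In siCtrl2 that junction held 282, 457 and 231 reads. The event before the 76-base exon had 284, 487 and 243 inclusion reads there. Between the 87-base and 76-base exons its level was 0.791, 0.600 and 0.717 in siCtrl2 and 0.870, 0.775 and 0.834 in siFUBP1. The second siCtrl2 library was the lowest, and the groups overlapped. The skipping reads of this event, which join the 87-base exon to the 76-base exon, were 40, 173 and 51 in siCtrl2 and 35, 62 and 27 in siFUBP1. The unadjusted p was 0.00259 and the adjusted p 0.435. Without the second siCtrl2 library the unadjusted p was 0.234. Between the 87-base exon and the 253-base form the 131-base exon had skipping reads of 0, 52 and 0 in siCtrl2 and 0, 2 and 10 in siFUBP1, so the control reads came from that same library. Its unadjusted p went from 0.0247 to 0.213 without it.

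The 113-base exon had few reads in both groups. Its inclusion reads between the 131-base and 76-base exons were 21, 26 and 7 in siCtrl2 and 2, 2 and 1 in siFUBP1, with skipping reads of 14, 43 and 32 against 22, 14 and 11. The levels were 0.460, 0.256 and 0.111 in siCtrl2 and 0.0492, 0.0751 and 0.0492 in siFUBP1. The groups did not overlap, but the control libraries spread widely and the unadjusted p was 0.100. The 121-base exon between the 87-base exon and the 166-base form likewise had 8, 7 and 5 inclusion reads in siCtrl2 and 2, 2 and 0 in siFUBP1, with an unadjusted p of 0.148. The 139-base exon between the 87-base exon and the 166-base form had 0, 12 and 12 inclusion reads in siCtrl2 and 0, 6 and 4 in siFUBP1. In the other tables this event had 10, 24 and 2 inclusion reads in GFP ASO, 25, 5 and 1 in U3 ASO, 0 and 14 in siCtrl input and 0 and 1 in siFBL input. The groups overlapped in each table, and reads of this exon were uneven between libraries of one group.

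The acceptor chosen in the first coding exon was followed through reads that run from the 87-base exon straight to it. The 166-base form took 91.0%, 87.3% and 93.9% of these reads in siCtrl2 and 96.9%, 97.5% and 94.8% in siFUBP1, out of 145 to 409 reads per library. All siFUBP1 libraries were above all siCtrl2 libraries, and the exact permutation test, two-sided, gave p = 0.1, the smallest that 3 against 3 libraries allow. The 253-base form took 12.7% of these reads in the second siCtrl2 library and 0% in the other two, while the 480-base form took 8.97%, 0% and 6.15% in siCtrl2. The site used beside the 166-base form thus differed between libraries of one group.

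**Figure D2:**
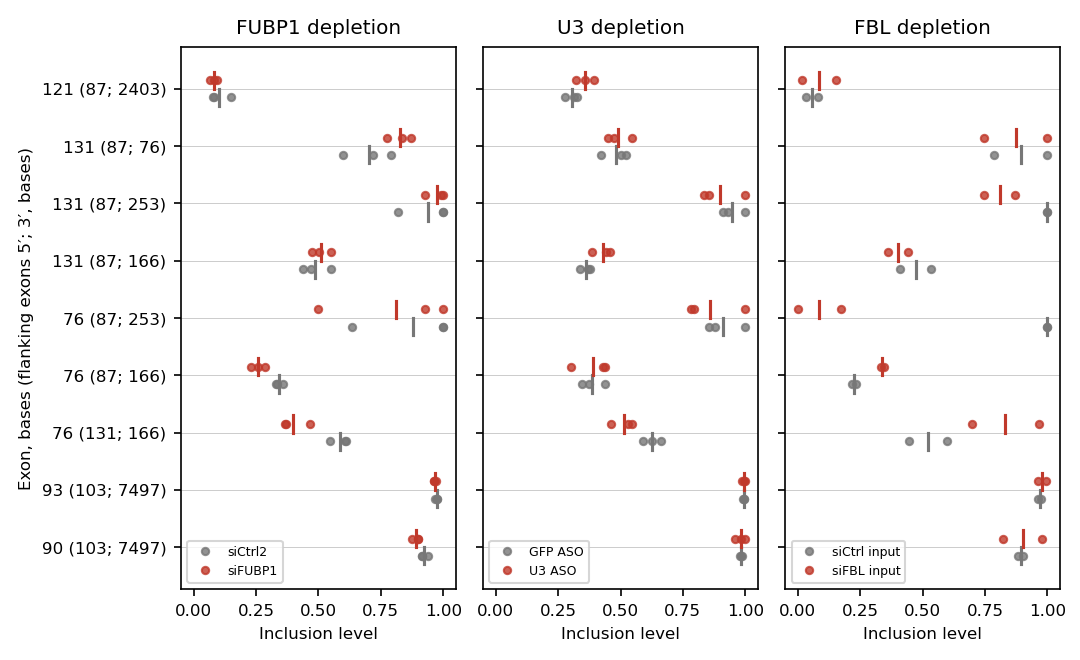
Inclusion level (0 to 1) of 9 PEG3 events in every library, with rows named by the exon's length and, in brackets, the lengths of its 5′ and 3′ flanking exons. Grey points are control and red points depleted libraries, and vertical bars are group means. The 76-base exon between the 131-base exon and the 166-base form separates the groups in all 3 panels. The direction is downward for FUBP1 and U3 and upward for FBL, and no adjusted p was under 0.1 by the quasi-binomial test.

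After depletion of U3 no PEG3 event passed the test either. The quasi-binomial test called 0 of the 28 PEG3 events, against 0.226% of all tested events, and no PEG3 event reached an unadjusted p under 0.05, against 4.13% of all events. The lowest unadjusted p was 0.131 and the lowest adjusted p 0.845. The log2 odds tested by limma gave 0 calls. Groups did not overlap for 3 of the 28 events, against 6.18% of all tested events. Of the 28 events, 10 were lower and 18 higher in U3 ASO, against 59.2% of all tested events lower. The median change was 0.00647 against -0.0036 over all events.

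The 3 events without overlap all ended in the 166-base form. The 76-base exon after the 131-base exon was included at 0.626, 0.660 and 0.588 in GFP ASO and at 0.528, 0.461 and 0.547 in U3 ASO, with an unadjusted p of 0.149. The 131-base exon after the 87-base exon had levels of 0.339, 0.371 and 0.379 in GFP ASO and of 0.384, 0.458 and 0.442 in U3 ASO, with an unadjusted p of 0.166. The 121-base exon after the 87-base exon stood at 0.0976, 0.115 and 0.110 in GFP ASO and at 0.137, 0.122 and 0.226 in U3 ASO, and this was the event with the unadjusted p of 0.131. Among reads that reach the 166-base form without the 76-base exon, those from the 131-base exon made up 18.0%, 17.0% and 21.2% in GFP ASO and 24.7%, 31.1% and 25.9% in U3 ASO. The exact permutation test gave p = 0.1 here. In siCtrl2 the same share was 21.3% ± 4.30 and in siFUBP1 30.5% ± 9.84 (SD, n = 3), where the groups overlapped (exact permutation p = 0.2). The FBL table had the opposite direction, with 10.9% and 31.4% in siCtrl input and 15.0% and 1.92% in siFBL input, and the groups overlapped there too (exact permutation p = 0.667).

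The input libraries of the FBL depletion were the thinnest. The quasi-binomial test called 0 of the 18 PEG3 events, and 0% of all tested events, while limma on the log2 odds called none in the table. At an unadjusted p under 0.05 there were 2 PEG3 events, against 2.25% of all tested events. Groups did not overlap for 5 of 16 events with reads in every library, 2 lower and 3 higher in siFBL input, against 14.4% of all tested events. Of the 18 events, 8 were lower and 10 higher, against 52.1% of all tested events lower. The median change was 0.00908 against -0.0034 over all events. With 2 against 2 libraries the exact permutation test cannot go below p = 0.333.

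Both events with an unadjusted p under 0.05 rested on the junction from the 87-base exon to the 253-base form. That junction had 0 and 0 reads in siCtrl input and 16 and 4 reads in siFBL input. The 76-base exon inside it had 26 and 12 inclusion reads in siCtrl input and 5 and 0 in siFBL input, with an unadjusted p of 0.0174 and an adjusted p of 0.875. The 131-base exon inside it had levels of 1.00 and 1.00 in siCtrl input and of 0.747 and 0.872 in siFBL input, with an unadjusted p of 0.0481. Leaving out 1 library gave unadjusted p-values up to 0.232 and 0.314. The 253-base form took 0% and 0% of the reads from the 87-base exon to the first coding exon in siCtrl input and 19.05% and 7.55% in siFBL input, out of 53 to 103 reads per library. The junction from the 131-base exon to the same form ran the other way, with 19 and 0 reads in siCtrl input and 0 and 0 in siFBL input.

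With the 166-base form the 76-base exon was higher in siFBL input. After the 131-base exon its level was 0.596 and 0.447 in siCtrl input and 0.699 and 0.965 in siFBL input. The skipping reads of this event were 13 and 27 in siCtrl input and 12 and 1 in siFBL input. After the 87-base exon the level was 0.233 and 0.217 in siCtrl input and 0.332 and 0.345 in siFBL input. Neither pair of groups overlapped, and the unadjusted p-values were 0.206 and 0.319. After the 139-base exon it was 0.768 and 0.792 against 1.00 and 0.963, from 23 to 39 inclusion reads per library. These events share the reads of the junction from the 76-base exon to the 166-base form, so they are not independent of each other. The direction was opposite to that of the same events after FUBP1 depletion for the exons after the 131-base and the 87-base exon. The difference between the depletions was not tested.

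**Figure D3:**
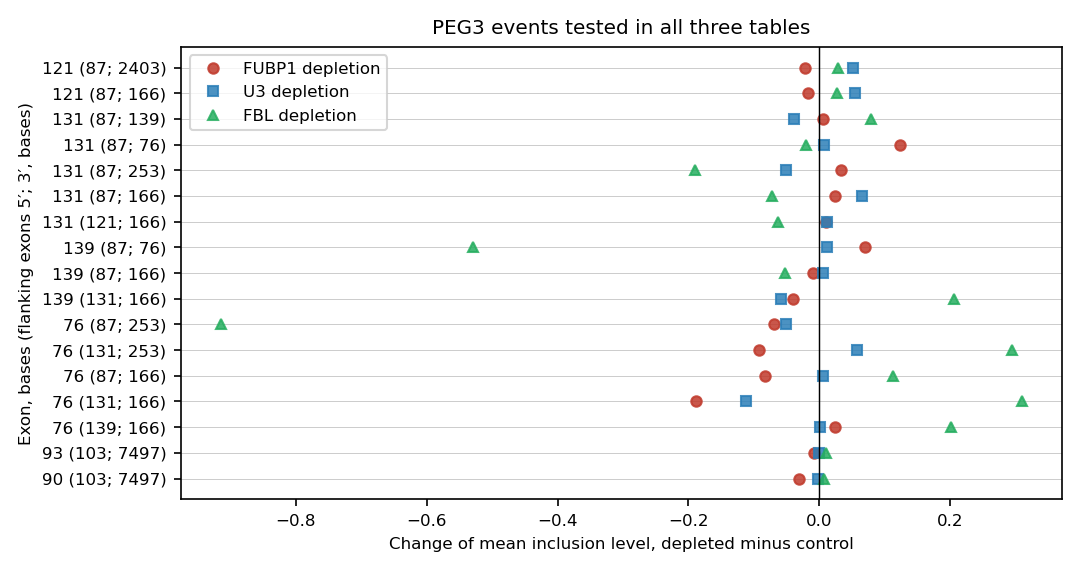
Change of the mean inclusion level, depleted minus control, for the 17 PEG3 events tested in all 3 tables, with rows named by exon length and by the lengths of the 5′ and 3′ flanking exons in brackets. Circles are FUBP1, squares U3 and triangles FBL depletion. The widest changes are triangles, from the thinnest libraries, and the 93-base and 90-base forms stay near 0 in all 3.

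Taking the 17 events that were tested in all 3 tables, 10 were lower in siFUBP1, 6 in U3 ASO and 7 in siFBL input. The sign was shared by FUBP1 and U3 depletion in 9 events, by FUBP1 and FBL depletion in 4 and by U3 and FBL depletion in 8. Averaged over the tested events of each table, the inclusion level was 0.616, 0.596 and 0.582 in siCtrl2 and 0.577, 0.587 and 0.587 in siFUBP1, a change of -0.0143 (exact permutation p = 0.3). The U3 ASO libraries overlapped the GFP ASO libraries, at 0.609 to 0.665 against 0.595 to 0.679 (exact permutation p = 1). In siFBL input the mean was 0.523 and 0.629 over 16 events, against 0.609 and 0.632 in siCtrl input, and the exact permutation test gave p = 0.667.

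The coding exon before the last exon was included almost always. Its 93-base form had the most reads of all PEG3 events, with inclusion levels of 0.968, 0.976 and 0.976 in siCtrl2, 0.961, 0.961 and 0.972 in siFUBP1, 0.995, 0.996 and 0.992 in GFP ASO and 1.00, 0.987 and 0.996 in U3 ASO. In siCtrl input it had 0.964 and 0.973 and in siFBL input 0.996 and 0.964. Groups overlapped in every table. Both forms keep the reading frame, since their lengths are multiples of 3 bases, and they differ by a length of 3 bases. The 90-base form was included at 0.915, 0.937 and 0.916 in siCtrl2 and at 0.875, 0.900 and 0.899 in siFUBP1, without overlap and with an unadjusted p of 0.405. Each form is set against the same skipping reads, without the reads into the other form's acceptor. The levels of the 93-base and 90-base forms are therefore not shares of one total.

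The choice between the tandem acceptors can be read from the inclusion reads of both forms, which share the reads of the downstream junction. The 90-base form had 32.6% ± 5.25 as many inclusion reads as the 93-base form in siCtrl2 and 29.9% ± 5.22 in siFUBP1 (SD, n = 3, exact permutation p = 0.7). U3 ASO libraries had a ratio of 29.3% ± 2.47 and GFP ASO libraries one of 32.2% ± 1.80 (exact permutation p = 0.2). It was 28.2% and 25.5% in siCtrl input and 20.2% and 17.3% in siFBL input, without overlap, at the smallest p of 0.333 that this design allows in an exact permutation test. Since the shared junction is counted in both forms, these ratios are above the share of the 90-base acceptor among these reads. GENCODE lists the 93-base form in 3 ZIM2 transcripts and the 90-base form in 0. Reads into the 93-base acceptor can therefore also come from ZIM2.

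PEG3 junction reads were summed over events, per 1000000 junction reads of the table. The sum stands for reads at the listed junctions and not for the level of the whole transcript. It includes reads of exons shared with ZIM2. These sums count a read once for every event it enters, so their levels were compared between libraries of one table and not between genes. Only their log2 ratios were set beside those of other genes. In siCtrl2 the values were 1462, 1964 and 1429, and in siFUBP1 1881, 1834 and 1545. The groups overlapped, with a log2 ratio of 0.13 ± 0.11 (SE) and an adjusted p of 0.554 by limma. The limma test called 12.2% of all genes tested here.

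The summed PEG3 junction reads fell after U3 depletion. GFP ASO libraries had 644, 600 and 592 PEG3 junction reads per 1000000 and U3 ASO libraries 452, 458 and 413. The groups did not overlap, and the log2 ratio was -0.47 ± 0.06 (SE), with an adjusted p of 8.06e-06 by limma and the smallest possible exact permutation p of 0.1. After U3 depletion 47.2% of all genes tested were called, 886 of them lower and 3148 higher, and the median gene had a log2 ratio of 0.27, so that PEG3 was -0.74 away from the median gene. With scaling by the median ratio its log2 ratio was -0.72. ZIM2, which shares the first exons, had a log2 ratio of -0.38 ± 0.14 (SE) with an adjusted p of 0.0371, from a single event in the same region. FUBP1 itself went from 59.9 ± 3.68 in GFP ASO to 41.5 ± 2.53 per 1000000 in U3 ASO (SD, n = 3), and the summed hepatocyte markers went from between 136190 and 141044 to between 111537 and 112870 per 1000000. The part of either in the change of PEG3 was not tested.

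After FBL depletion the PEG3 values were 1673 and 1749 in siCtrl input and 1531 and 1154 in siFBL input. Both siFBL libraries were lower, and the log2 ratio was -0.36 ± 0.13 (SE) with an adjusted p of 0.190 by limma. For FBL depletion 3.64% of all genes tested were called, and the median gene had a log2 ratio of -0.19.

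**Figure D4:**
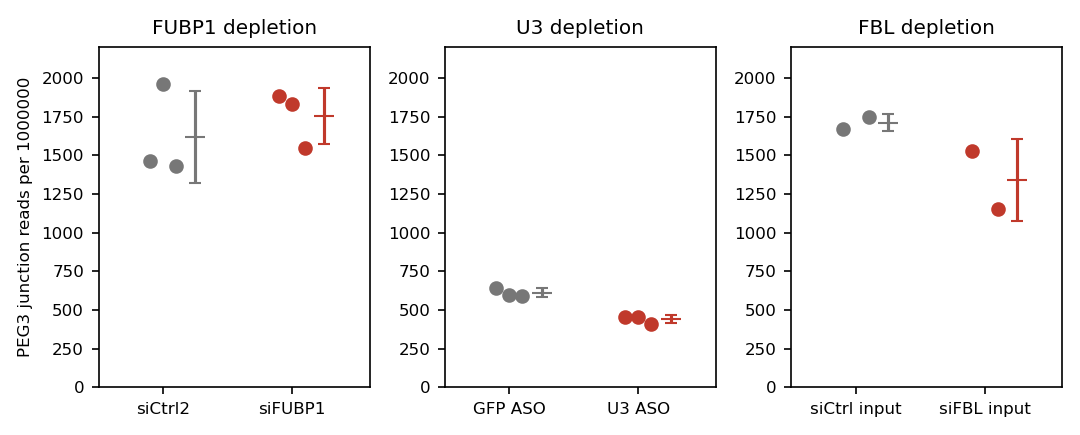
PEG3 junction reads per 1000000 junction reads in each library (points) with the mean and SD of each group (bars), for the 3 depletions. The U3 ASO libraries at 413 to 458 lie below the GFP ASO libraries at 592 to 644, while siFUBP1 overlaps siCtrl2.

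The genes with the 3 log2 ratios nearest to those of PEG3, out of 2943 genes compared by Euclidean distance, were NID1, GLUL, TPT1, NUCB1 and GCAT, at distances of 0.0923 to 0.141. NID1 is the basement membrane protein nidogen-1 and GLUL is glutamine synthetase. NID1 had log2 ratios of 0.11 for FUBP1, -0.42 for U3 and -0.44 for FBL depletion.

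Other imprinted genes were taken from a list of 47 genes. For FUBP1 depletion 17 of them had 62 tested events, for U3 depletion 23 had 122 and for FBL depletion 10 had 27, and the quasi-binomial test called 0 of these in each table. The median changes were -0.0011, -0.00077 and 0.00883. All tested events were called at 0.197%, 0.226% and 0%. By junction reads, 1 fell and 2 rose of 17 genes after FUBP1 depletion, against 12.2% of all genes called. After U3 depletion 8 fell and 8 rose of 23, against 10.4% of all genes called lower and 36.8% called higher. After FBL depletion 0 were called of 11, against 3.64% of all genes. After U3 depletion the growth factor gene IGF2 fell by 1.51 on the log2 scale (adjusted p of 4.4e-14 by limma) and the adaptor gene GRB10 rose by 1.32 (adjusted p of 2.04e-05). The median log2 ratio of the 23 genes was 0.16, against 0.27 over all genes, so DLK1, called higher at 0.16, was below the median gene.

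Genes for SCAN domain zinc finger proteins, the protein class of PEG3, numbered 43 on the list. The quasi-binomial test called 0 of 22 tested events in the FUBP1 table, 1 of 66 in the U3 table, an exon of ZKSCAN1 that was higher, and 0 of 6 in the FBL table, against 0.197%, 0.226% and 0% of all tested events. By junction reads, 7 of 25 such genes rose and 0 fell after U3 depletion, against 36.8% of all genes called higher and 10.4% lower, with a median log2 ratio of 0.55 against 0.27 over all genes. After FUBP1 depletion 1 of 12, ZNF274, rose, with a log2 ratio of 1.24, against 12.2% of all genes called, and after FBL depletion 0 of 7 were called, against 3.64%.

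PEG3 had a high mean normalized count in the FUBP1 RIP table and was enriched over input in both conditions. In the deposited table its mean normalized count was 126751 for siCtrl and 99979 for siFBL, ranks 21 and 26 of the 11581 genes that reached 50 in both conditions. The log2 ratio of RIP over input was 2.46 ± 0.04 (SE) in siCtrl and 2.25 ± 0.04 in siFBL, which is 5.49-fold and 4.76-fold. In siCtrl 88.7% of the genes, and in siFBL 89.0%, were less enriched than PEG3. The median gene stood at 0.15 in siCtrl and 0.12 in siFBL. Of the 716 genes that reached 10000 in siCtrl, 141 had a higher enrichment. The values are ratios within a condition, and single RIP libraries were not analysed here, so no test was run.

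The enrichment was lower by 0.21 on the log2 scale in siFBL than in siCtrl, with an SE of 0.05 combined from both conditions. The median difference over all genes was -0.0014, and 29.8% of genes had a lower difference than PEG3. The RNA of the antisense gene PEG3-AS1 had an enrichment of 0.86 ± 0.55 (SE) in siCtrl and 2.21 ± 0.74 in siFBL, from mean counts of 93.5 and 72.7. ZIM2 had 1.09 ± 0.38 and 1.34 ± 0.56. For PEG3-AS1 the difference between conditions was 1.35 with an SE of 0.93, and for ZIM2 it was 0.24 with an SE of 0.68.

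Among imprinted genes, 28 of 46 in the table reached a mean count of 50 in both conditions, and 16 of the 28 were above 0 in siCtrl and 16 in siFBL, against 52.3% and 52.1% of all genes. Their median enrichment was 0.69 in siCtrl and 0.36 in siFBL. PEG10, another paternally expressed gene, stood beside PEG3 with a mean count of 139941 in siCtrl and an enrichment of 2.25 ± 0.04 in siCtrl and 2.01 in siFBL. IGF2, at a mean count of 11125, was below its input, with -3.44 ± 0.19 in siCtrl and -3.13 in siFBL. Of 36 SCAN domain zinc finger genes that passed the minimum, 19 were above 0 in siCtrl and 18 in siFBL, with medians of 0.16 and 0.02, and these counts were near the same shares of all genes.

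**Figure D5:**
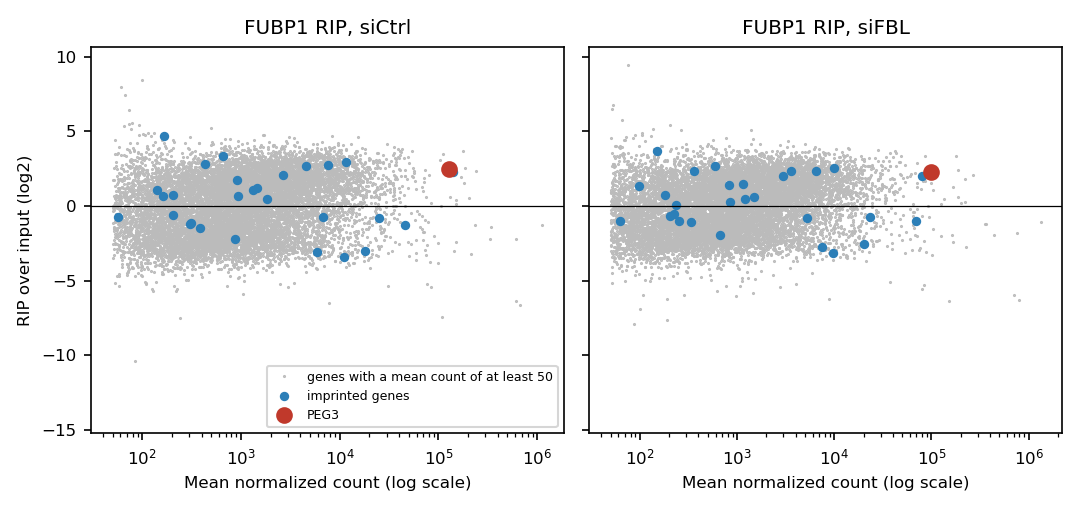
Enrichment in FUBP1 RIP over input (log2) against the mean normalized count on a log axis, for siCtrl and siFBL. Grey points are the 11581 genes whose mean count reached 50, blue points are imprinted genes and the red point is PEG3, at 2.46 in siCtrl and 2.25 in siFBL near the right edge of the cloud.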

How the data were processed

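Libraries had been trimmed with Cutadapt and aligned to hg38 with HISAT2 by the authors, and skipped exon events counted with rMATS. The deposited event tables hold inclusion and skipping junction reads per event as lists with 1 number per library, without a library number, and libraries are named here by their place in the list. The authors' p-values, false discovery rates and the inclusion levels per library (6 columns) were not used. The deposited RIP table holds the authors' DESeq2 comparison of RIP with input. Its log2 ratio and SE were used as the enrichment values, the deposited mean normalized count as a score, and its p-values not at all. The table does not list the libraries behind each mean.

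Events averaging 10 or more junction reads were tested in a quasi-binomial model with limma 3.58.1 (R 4.3.3), and p-values adjusted by Benjamini-Hochberg over the table. Gene sums were tested with limma on log2(reads per 1000000 + 0.5). The scripts were tested on simulated data. Splice sites came from hg38 and exons from GENCODE 44. The depth sets the precision, and reads were not corrected for duplicates as far as stated. Values in every library were given for the 4 events with the most reads per table, events with an unadjusted p under 0.05, and exons tested in all 3 tables. The other events named (those without overlap, and the acceptor and tandem ratios) were chosen after their values were seen. PEG3, the gene lists and these choices were made with earlier results of these data known.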

Additional observations from a re-analysis of the deposited data

How the results depend on the processing

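The number of PEG3 events called was 0 in each table with no read minimum, with a minimum of 20, with 1 prior dispersion, with limma on the log2 odds and without each library in turn. The log2 ratio of junction reads for FUBP1 depletion was 0.13 and became -0.049 with the event with the most reads alone, and ran from 0.04 to 0.27 without single libraries. That for U3 depletion stayed below 0 and past the threshold in every alternative, from -0.72 to -0.40, and that for FBL depletion stayed below 0 and short of the threshold, from -0.57 to -0.11. The mean inclusion change for U3 depletion was 0.0042 and ran from -0.013 to 0.0285 without single libraries. That for FBL depletion was -0.044 and became 0.0291 with a minimum of 20 reads and 0.0209 as a pooled share, and ran from -0.099 to 0.00871 without single libraries. The causes were not tested. No paired analysis was possible because list positions carry no replicate number. Depth differed between the tables, since the median PEG3 event held 114.5, 162.75 and 28 reads per library for FUBP1, U3 and FBL depletion, and 6 of the 24 events listed for FBL depletion were not tested.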
